A study of Drosophila melanogaster with 9 samples.

Results

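Mesodermal cells that lack the Forkhead transcription factor CHES-1-like were compared with control mesodermal cells, with 3 arrays in each group out of 9 arrays in the series. The null embryos carried Df(1)CHES-1-like1, a deletion on the X chromosome, with twi-GAL4 and UAS-2EGFP; the labels give neither its copy number nor the sex of the embryos. Control embryos had the same driver and reporter, twi-GAL4 and UAS-2EGFP, and no deletion. In both groups the twi-GAL4 driver places green fluorescent protein in cells that express Twist, and fluorescent cells were sorted from embryos that had developed at 25 °C and had reached stage 11 or the start of stage 12. The sorted cells are therefore a mixture of all mesodermal lineages and of any other cell that carried enough fluorescent protein to pass the sort. The remaining group, embryos homozygous for Df(3R)Exel6157, which removes jumu, and with the same driver and reporter, entered the estimate of spread and served for side by side values. Each array measured total RNA of 1 sample. The members are the 11982 genes that a named probe set represents, out of 18769 probe sets tested. The labels do not state whether replicates are separate embryo collections; if they are not, the p-values reflect technical spread alone.

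Forkhead proteins bind DNA through a winged-helix domain and can activate or repress the genes they bind. CHES-1-like is a fly relative of the vertebrate checkpoint suppressor proteins FOXN2 and FOXN3, and in the fly mesoderm it is known for its part in forming heart progenitors together with jumu. This stage is the time at which the mesoderm is divided into heart, body wall muscle, gut muscle, fat body and blood cell precursors, before the muscles fuse and contract.

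All values below are log2 signals per probe set, and a change is the null mean minus the control mean on that scale. A change is called higher or lower where the limma adjusted p was under 0.05 over all probe sets. The level that bounds 95% of 125 odorant and gustatory receptor probe sets, 5.28, served as the background bound, and a change against a group mean under it understates the difference. In bulk RNA, fewer cells of a type and less RNA per cell cannot be told apart.

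Array medians lay between 5.42 and 5.51, and Pearson's r over all probe sets was 0.9979 to 0.999 within the groups and 0.9912 to 0.9927 between them. Of the early mesoderm regulators, zfh1 was at 12.10 ± 0.02 (SD, n = 3) in the null and 12.00 ± 0.03 in controls, and twi at 9.54 ± 0.07 and 9.68 ± 0.04. Neither change passed the threshold (limma adjusted p = 0.203 and 0.0566). The change of twi passed in 5 of 14 alternative fits, among them the fit without null replicate 3 (limma adjusted p = 0.0194). The regulator gene sna rose by 0.13 and passed the threshold. Its call held in 1 of 6 fits without 1 array (limma adjusted p up to 0.135). The mesoderm genes Mef2, how and tin were not analysed here. Of 28 measured mesoderm genes 7 were higher and 10 lower, and their mean lay between 8.91 and 8.95 in the null arrays and between 8.98 and 9.02 in the controls. Muscle structural genes were lower and markers of ectodermal and endodermal cells higher in the null, as given with the gene families below.

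Across the genome, 2045 genes were higher (17.1%) and 2231 lower (18.6%) in the null, and 7706 did not pass the threshold. For 5991 genes (50.0%) every null array lay on one side of all control arrays. Wherever all 6 array values of a gene are printed below, its groups do not overlap. Most called changes were small: 3567 of the called genes differed by less than 1.5-fold, 523 by 1.5-fold to 2-fold, and 92 rose and 94 fell at least 2-fold. The median change was 0.302 among the higher genes and −0.338 among the lower genes, and the median over all genes was 0.025. The median SE of a change was 0.063. Bright genes were called more often than dim ones. In the brightest 20% of genes 26.0% were higher and 30.2% lower, against 4.59% and 2.21% in the dimmest 20%.

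**Figure D1:**
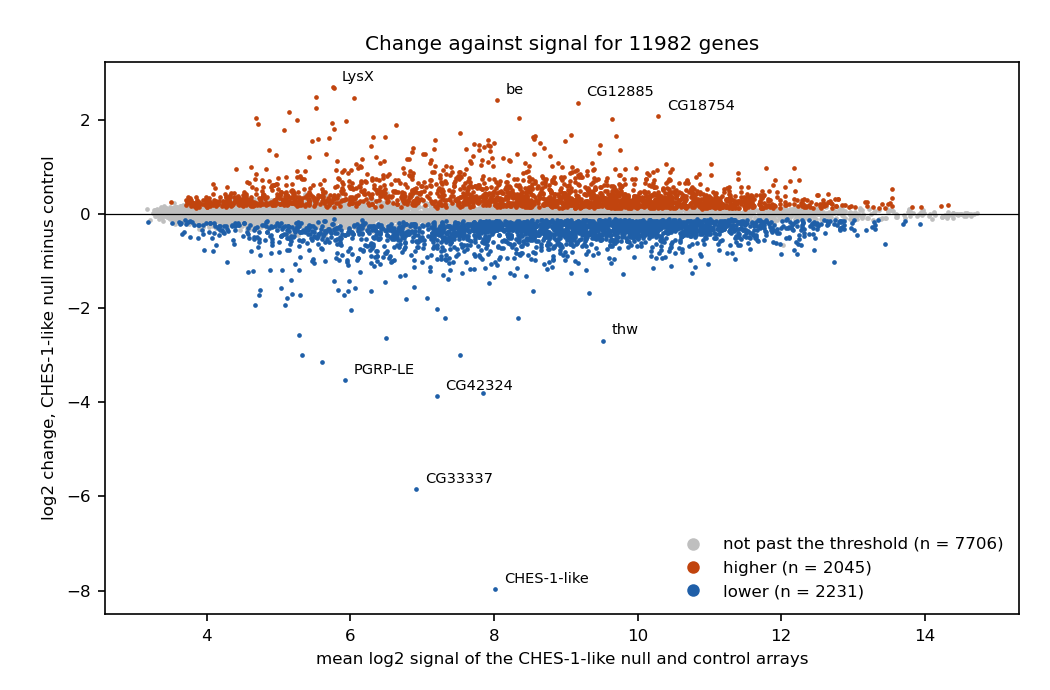
Change in the CHES-1-like null against the mean log2 signal of the 6 arrays, with 1 point per gene; higher genes are red, lower genes blue and the 7706 genes past no threshold grey. Most called points lie close to 0, and CHES-1-like and CG33337 lie far below all others.

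The deleted gene was examined first. At its brightest probe set CHES-1-like read 3.88, 4.32 and 3.92 in the null arrays and 12.03, 11.97 and 12.02 in the control arrays. All null values were below the background bound. At a second probe set it read 6.34, 5.86 and 6.76 against 8.32, 7.97 and 8.08, a change of −1.80 ± 0.20 (SE). The signal at that second probe set stayed above the background bound in every null array, and what the remaining signal comes from was not tested. The genes around CHES-1-like on the X chromosome showed no block of loss. Of the 20 nearest measured genes 1 was higher and 3 were lower, among them Tom40, a pore subunit of the mitochondrial outer membrane, at −0.29, and Hira, a histone chaperone, at −0.16. Of the 200 nearest 37 were higher and 42 lower, which is 18.5% and 21.0%. By chromosome arm, the higher share lay between 15.2% on 2R and 21.5% on chromosome 4, and the lower share between 17.4% on 3L and 29.2% on chromosome 4. Chromosome 4 holds 65 measured genes, and the X held 16.9% higher and 21.4% lower genes.

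The 15 largest decreases included 5 genes on the X, and the 15 largest increases included 6. Of the 60 measured neighbours that lie directly beside one of these 30 genes, 16 changed in the same direction and 7 in the opposite direction. Over all genes 17.1% were higher and 18.6% lower. The other 37 neighbours did not pass the threshold, against 7706 of 11982 over all genes. Some neighbouring pairs moved together. Cyp4p2 and its neighbour Cyp4p1, which encode cytochrome P450 enzymes, fell by 2.63 ± 0.09 and 1.73 ± 0.11 (SE). The lysozyme gene LysX and its neighbour Aplip1, which encodes a scaffold that links kinesin to the JNK pathway, rose by 2.69 ± 0.07 and 2.03 ± 0.10. Both LysX and Aplip1 are among the 30 genes, so each was counted as a neighbour of the other. Other pairs did not: the atypical guanylyl cyclase gene Gyc89Da rose by 2.67 ± 0.10 while Gyc89Db, beside it, changed by −0.54 ± 0.07. SPE, which encodes the protease that processes the Toll ligand Spätzle, rose by 1.27 ± 0.09 beside CG18754, and CG16710 on the other side of that gene changed by −0.46 ± 0.06.

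PGRP-LE encodes a receptor inside the cell for bacterial peptidoglycan. It read 4.16, 4.43 and 3.90 in the null arrays and 7.70, 7.68 and 7.69 in the control arrays. The null arrays all fell below the background bound, and the change was −3.53 ± 0.11 (SE, limma adjusted p = 8.22e-08). In the jumu deficiency PGRP-LE changed by −0.09, and null minus jumu deficiency was −3.44 (limma adjusted p = 2.9e-08). Ac76E, an adenylyl cyclase gene, read 6.34, 6.36 and 5.94 in the null arrays against 8.45, 8.40 and 8.41 in the controls. Ac76E fell by 2.21 ± 0.14 in the null, and in the jumu deficiency, which shares the controls, Ac76E changed by −4.33. RhoGAP100F, which encodes the synapse protein Syd-1, fell by 2.01, with null arrays at 6.33, 6.41 and 5.87 and control arrays at 8.29, 8.19 and 8.17. Of its neighbours the ferrochelatase gene FeCH fell by 0.68 ± 0.05 and the RNA-binding protein gene heph rose by 1.36 ± 0.11.

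Among the increases, klar encodes a nuclear envelope protein that moves nuclei and lipid droplets along microtubules. It read 10.65, 10.69 and 10.64 in the null arrays and 8.67, 8.67 and 8.59 in the controls, a rise of 2.02. The mucin gene Muc11A read 6.06, 6.55 and 6.16 against 4.17, 4.32 and 4.29. The glycosyltransferase gene Ugt35A1 read 6.88, 6.98 and 6.92 against 4.89, 5.03 and 4.94. Control arrays of Muc11A and Ugt35A1 lay below the background bound, as did the control means of 10 of the 15 largest increases. Null means lay below it for 9 of the 15 largest decreases. CG18754 rose by 2.08 in the null and changed by −4.39 in the jumu deficiency. The null and the jumu deficiency differed by less than 1 log2 unit for 5 of the 15 largest increases and for 8 of the 15 largest decreases.

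**Figure D2:**
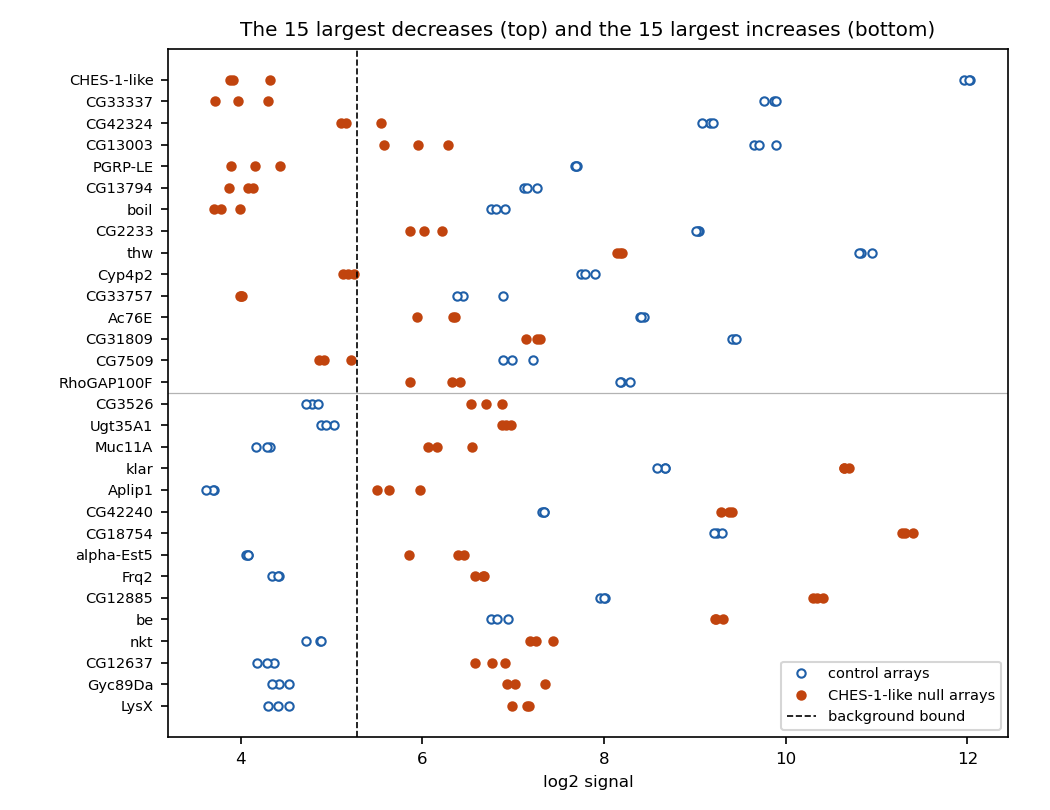
Log2 signal of the 15 genes with the largest decreases and the 15 with the largest increases, with 1 filled point per CHES-1-like null array and 1 open point per control array. The dashed line is the background bound of 5.28, and no gene shows overlap between the groups, by the rule that chose them.

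Genes in the brightest 20% give the changes least affected by background. Rbm13 rose by 1.65, from control arrays at 8.90, 8.91 and 8.81 to null arrays at 10.50, 10.50 and 10.57. Ect3, which encodes a lysosomal beta-galactosidase, rose by 1.45, and GILT3, of the lysosomal thiol reductase family, by 1.05. smg encodes Smaug, which represses and clears maternal messenger RNA. Its null arrays read 10.98, 10.96 and 10.84 and its control arrays 9.90, 9.81 and 9.90, a rise of 1.06 ± 0.05 (SE). The lipocalin gene Karl rose by 0.96. In the other direction the ryanodine receptor gene RyR, which encodes the calcium release channel of the endoplasmic reticulum, fell by 1.11, with null arrays at 9.92, 9.92 and 9.91 and control arrays at 11.03, 11.04 and 11.01. The endoribonuclease gene EndoU fell by 1.25 and the zinc finger gene sug, which takes part in the response to dietary sugar, by 1.12. Pgm1, which encodes phosphoglucomutase, fell by 0.94 ± 0.04.

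**Figure D3:**
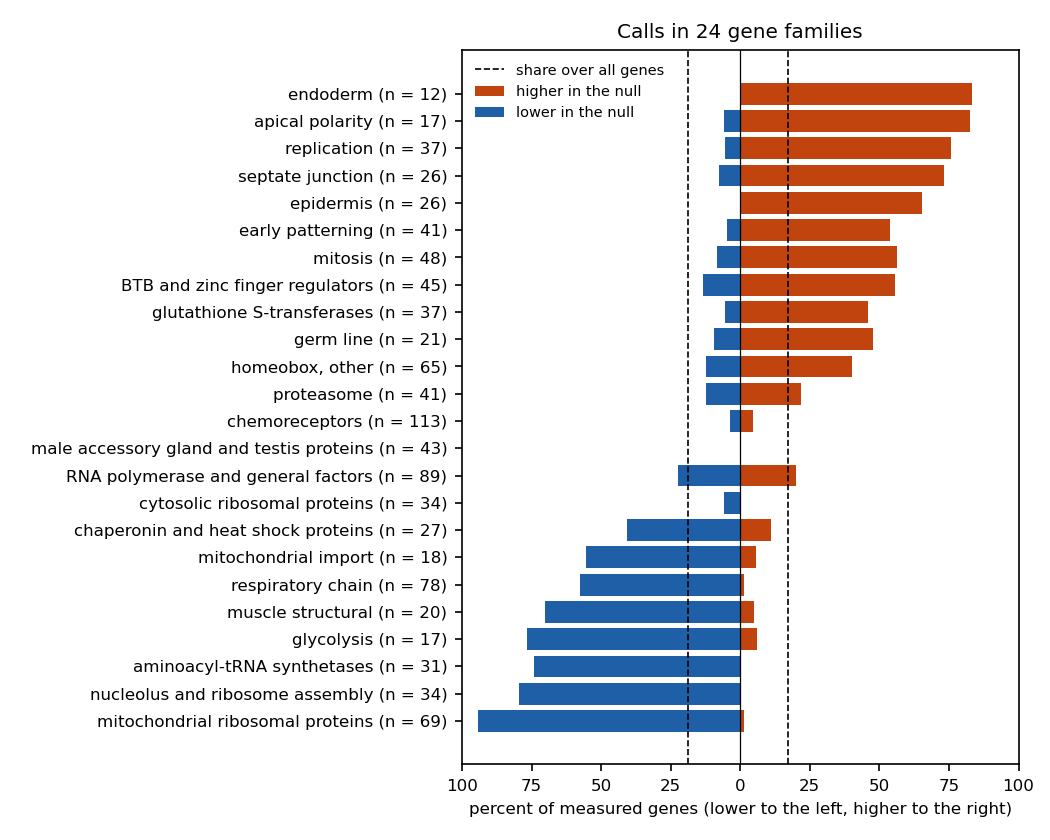
Share of measured genes called higher (to the right) or lower (to the left) in the CHES-1-like null for 24 gene families, in percent. Dashed lines mark the shares over all genes, 17.1% higher and 18.6% lower; mitochondrial ribosomal proteins stand at one end, endoderm and apical polarity genes at the other.

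Genes of sugar breakdown were lower. Of 17 measured genes of glycolysis and of glycogen and trehalose metabolism, 13 fell and 1 rose, with a median change of −0.58 against 0.025 over all genes. The mean of the list lay between 8.20 and 8.25 in the null arrays and between 8.71 and 8.75 in the control arrays. The triosephosphate isomerase gene Tpi had the largest change of the list: its null arrays read 7.77, 7.71 and 7.87 and its control arrays 9.15, 9.07 and 9.07, a fall of 1.32 ± 0.05 (SE, limma adjusted p = 2.46e-07). This left 40.2% of the signal of the controls. Eno read 10.86, 10.91 and 10.87 in the null arrays and 11.84, 11.81 and 11.83 in the controls. The phosphofructokinase gene Pfk, which encodes the main control point of glycolysis, read 6.86, 6.69 and 6.65 against 7.70, 7.83 and 7.52. The groups did not overlap for any of these 3 genes.

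The other steps moved by smaller amounts. The hexokinase gene Hex-A, the first enzyme of the pathway, fell by 0.81 ± 0.06 (SE). The glyceraldehyde phosphate dehydrogenase gene Gapdh1 fell by 0.76 ± 0.05 and the phosphoglycerate kinase gene Pgk by 0.63 ± 0.06. The phosphoglycerate mutase gene Pglym78 fell by 0.44 ± 0.10, and the isomerase gene Pgi by 0.18 ± 0.04. Genes of trehalose and glycogen turnover were lower as well: the trehalase gene Treh fell by 0.88 ± 0.06 and the glycogen phosphorylase gene Glyp by 0.64 ± 0.05. Tps1, whose product makes trehalose, fell by 0.58 ± 0.09 to a level under the background bound. The glycogen synthase gene Glys was the sole riser of the list, by 0.27 ± 0.05. Gpdh1, UGP and Hex-C did not pass the threshold. Several of these genes were named after their values were seen. Against the jumu deficiency 11 of the 17 genes were lower in the null and 1 was higher. Over all genes 21.2% were lower and 21.1% higher in that comparison, which reuses the same null arrays. In the jumu deficiency the median change of the list against controls was −0.17. Treh lay 1.06 and Tpi 0.92 below the jumu deficiency. Glyp differed from it by −0.01 (limma adjusted p = 0.889).

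Muscle structural genes fell in the same arrays. Of 20 measured, 14 were lower and 1 higher (2 higher without null replicate 3), with 2 within background, and the mean of the list lay between 7.72 and 7.85 in the null arrays and between 8.30 and 8.33 in the control arrays. bt, which encodes the titin relative projectin, fell by 1.08 ± 0.09 (SE), and the troponin T gene up fell by 0.97 ± 0.10, both named after their values were seen. The part of muscle precursors in the changes of glycolysis genes was not tested.

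**Figure D4:**
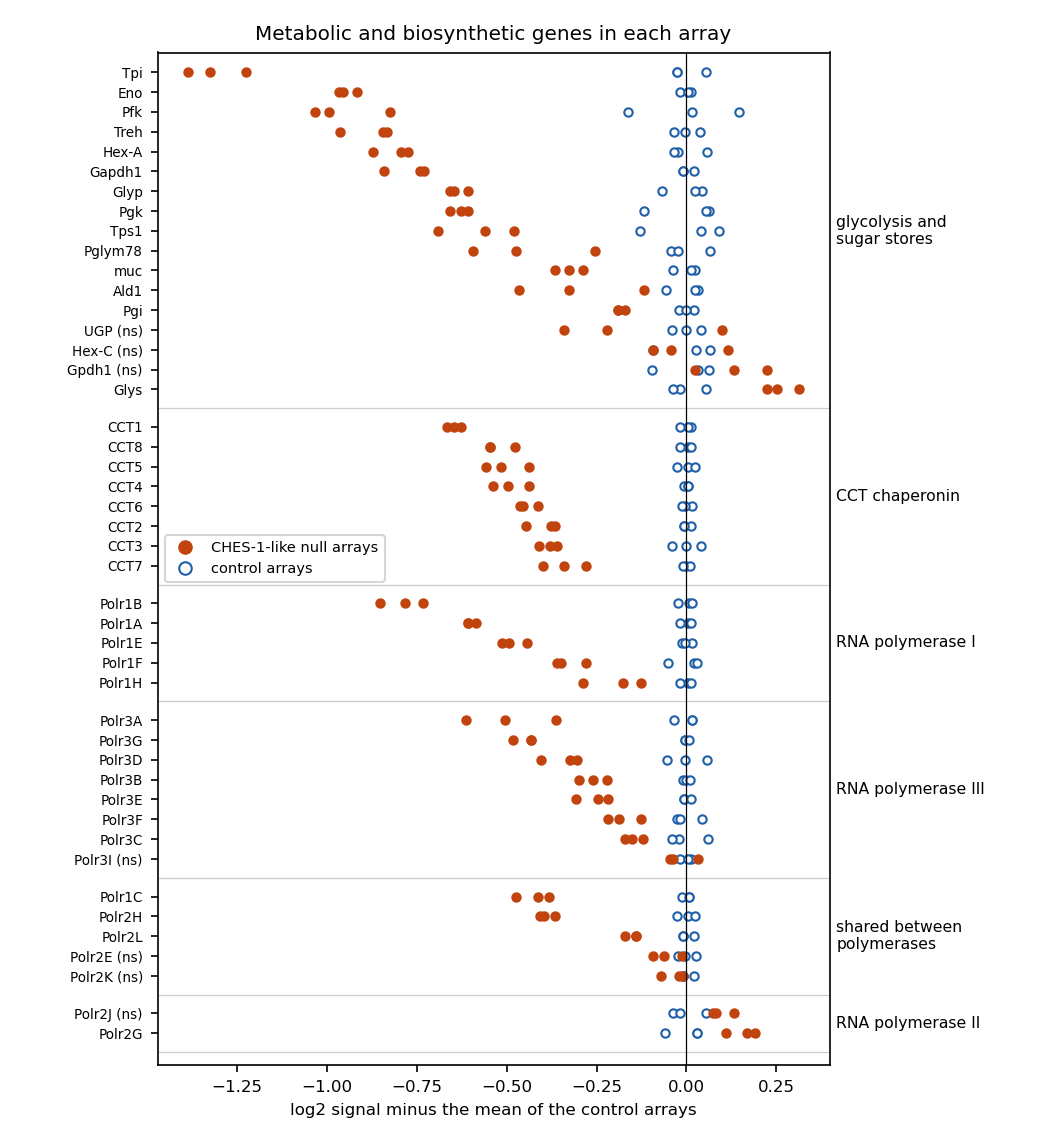
Log2 signal in each array minus the mean of the control arrays for genes of glycolysis and sugar stores, the CCT chaperonin and RNA polymerases I, III and II and subunits they share, with filled points for CHES-1-like null arrays and open points for control arrays; (ns) marks genes past no threshold. All 8 CCT and 5 RNA polymerase I genes lie left of 0 in every null array, and the 5 subunits shared between polymerases spread from Polr1C, well left of 0, to Polr2K, close to 0.

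Nuclear genes for the mitochondrial ribosome fell nearly throughout. Of 69 measured genes 65 were lower and 1 higher, a lower share far above the 30.2% of the brightest genes, and the median change was −0.34. The large subunit contributed 43 lower genes of 44 and the small subunit 22 of 25. The list mean lay between 9.80 and 9.83 in the null arrays and between 10.13 and 10.15 in the controls. mRpS18C read 9.98, 9.95 and 10.04 against 10.65, 10.68 and 10.66, the largest change at −0.67 ± 0.04 (SE). mRpS35 read 9.53, 9.47 and 9.44 against 10.07, 10.05 and 10.03. The mitochondrial elongation factor genes mEFTu1 and mEFTs fell by 0.83 ± 0.04 and 0.63 ± 0.04. In the jumu deficiency the median change of the 69 genes was 0.01, and 61 of them were lower in the null than in the jumu deficiency.

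Other mitochondrial genes moved the same way by less. Of 78 measured respiratory chain genes 45 fell, with a median of −0.16, and at most 1 rose in any fit without 1 array. That share, 57.7%, also lies above the 30.2% of the brightest genes. Complex I held 19 lower genes of 32, complex III 7 of 10, complex IV 8 of 16 and the ATP synthase 8 of 14, and complex II 3 of 6, with 1 higher. The lower count of complex I was 14 to 19 in fits without 1 array. The higher complex II gene, SdhCL, kept its call in 1 of 6 such fits. Of the 78 genes 17 had both means below the background bound. Among abundant subunits, ND-B16.6 of complex I fell from 11.45 ± 0.01 (SD, n = 3) to 11.12 ± 0.02, and SdhC of complex II from 11.22 ± 0.03 to 10.88 ± 0.03. In the import machinery 10 of 18 genes fell and at most 1 rose, with the receptor gene Tom70 at −0.71 ± 0.04 (SE) and ttm50, a subunit gene of the inner membrane translocase, at −0.73 ± 0.05. In the citric acid cycle list 9 of 19 fell and 3 rose. The glutamate dehydrogenase gene Gdh fell by 0.70 ± 0.04, and the aconitase gene mAcon1 by 0.39 ± 0.04. Idh, the isocitrate dehydrogenase that uses NADP, rose by 0.58 ± 0.07, with null arrays at 9.81, 9.62 and 9.91 and control arrays at 9.18, 9.25 and 9.17. The cytosolic transaminase gene Got1 rose by 0.31 ± 0.06, and its mitochondrial counterpart Got2 fell by 0.35 ± 0.06.

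Genes of ribosome assembly and tRNA charging were lower, while few genes of the cytosolic ribosome were called. Of 34 measured cytosolic ribosomal protein genes 2 were lower and none higher, with a median of −0.02. RpS19b, a copy with a far lower signal than the rest, changed by −0.40 ± 0.07 (SE). RpL34a changed by −0.12 ± 0.04, and its call was lost with a replicate block (limma adjusted p = 0.0873) and in 5 of 6 fits without 1 array (0.0712 to 0.131). The list mean was 13.39 to 13.40 in the null arrays and 13.43 to 13.44 in the controls, near the top of the scale. Of 49 translation initiation and elongation factors 14 fell (28.6%, close to the share of the brightest genes), with a median of −0.03. Of 34 nucleolar and ribosome assembly genes 27 fell (79.4%) and none rose, with a median of −0.26. wcd, which encodes an assembly factor of the small subunit, read 10.52, 10.48 and 10.44 against 10.91, 10.87 and 10.86, and the kinase gene RIOK2 fell by 0.45 ± 0.05. In the jumu deficiency wcd and RIOK2 changed by −0.36 and −0.38 against controls, and the median of this list was −0.12. Of the 34 genes 20 were lower and 4 higher in the null than in the jumu deficiency. Exosome subunit genes were lower in 6 of 7 cases, with Rrp45 at −0.40 ± 0.04 and Rrp46 at −0.40 ± 0.04. All 5 measured genes for proteins of small nucleolar particles fell, among them the fibrillarin gene Fib. Of 31 aminoacyl-tRNA synthetase genes 23 fell (74.2%) and none rose, comprising 14 of 18 cytosolic and 9 of 13 mitochondrial enzymes. The mitochondrial PheRS-m had the largest change, −0.84 ± 0.04, with null arrays at 10.43, 10.44 and 10.47 and control arrays at 11.31, 11.27 and 11.29.

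Subunits of RNA polymerases I and III were lower. All 5 measured subunits of RNA polymerase I that it does not share fell. This enzyme transcribes ribosomal RNA. Of 8 subunits of RNA polymerase III, which transcribes transfer RNA and 5S RNA, 7 fell. Of 5 subunits shared between polymerases 3 fell: Polr1C by 0.43 ± 0.04 (SE), Polr2H by 0.39 ± 0.04 and Polr2L by 0.15 ± 0.04. The 2 measured subunits of RNA polymerase II alone, Polr2G and Polr2J, changed by 0.16 ± 0.04 and 0.10 ± 0.04, and the latter did not pass. Whether the classes differ was not tested. Polr1B, the second largest polymerase I subunit, read 10.10, 10.05 and 9.98 in the null arrays and 10.81, 10.84 and 10.85 in the controls, a change of −0.79 ± 0.04 (SE). Polr1A, the largest subunit, fell by 0.60 ± 0.04, and the polymerase III subunit genes Polr3G and Polr3A by 0.45 ± 0.04 and 0.49 ± 0.06. In the jumu deficiency Polr1B and Polr1A changed by −0.51 and −0.26 against controls, and Polr3G and Polr3A by 0.1 and 0.04. Of 26 genes of Mediator, which links transcription factors to polymerase II, 8 rose and 1 fell, with a median of 0.07. Among the brightest genes 26.0% were higher and 30.2% lower, and a difference of Mediator genes from these shares was not tested. MED27 had the largest rise of the Mediator genes, 0.55 ± 0.05. Spt20, of the SAGA coactivator, rose by 0.73 ± 0.10, with null replicate 3 highest at 7.71 beside 7.34 and 7.35. The division into polymerase classes and the other subgroups given here was made after values were seen.

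Of 27 chaperonin and heat shock protein genes 11 fell and 3 rose. All 8 CCT subunit genes, which form the ring that folds actin and tubulin, fell by between 0.34 and 0.65. CCT1 read 11.66, 11.64 and 11.68 in the null arrays and 12.32, 12.31 and 12.29 in the controls. The mitochondrial chaperone genes Hsp60A and Hsc70-5 fell by 0.63 ± 0.05 and 0.50 ± 0.05 (SE). Hsc70-1, of the cognate heat shock proteins, fell by 0.72 ± 0.08, the largest fall of the list. The small heat shock protein gene Hsp26 rose by 0.72 ± 0.04, and Hsc70-3, the BiP chaperone of the endoplasmic reticulum, rose by 0.21 ± 0.04. Of 7 measured genes for inducible heat shock proteins and their regulator, Hsp26 alone passed the threshold, and Hsp68 changed by 0.09 and Hsp27 by 0.12. Of 41 proteasome genes 9 rose (22.0%) and 5 fell (12.2%), against 17.1% and 18.6% over all genes. The catalytic subunit gene Prosbeta5 rose by 0.28 ± 0.04. The lower count was 0 to 3 in fits without 1 array, and 0 without control replicate 2.

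DNA replication genes rose. Of 37 measured 28 were higher and 2 lower, with a median of 0.30, and the list mean lay between 8.99 and 9.05 in the null arrays and between 8.71 and 8.75 in the controls. All 5 measured genes for the Mcm helicase rose, by 0.29 to 0.49, as did all 6 for the origin recognition complex and helicase loading, by 0.22 to 0.67. Of 8 genes for RPA, the RfC clamp loader and PCNA, 6 rose. RPA1, the large subunit of the protein that covers single-stranded DNA, read 10.82, 10.80 and 10.81 against 10.11, 10.04 and 10.03. RfC38 read 9.48, 9.49 and 9.48 against 8.68, 8.57 and 8.61, the largest rise of the list at 0.87 ± 0.05 (SE). PCNA, the sliding clamp, rose by 0.50 ± 0.04. In the GINS complex, which joins Cdc45 at the helicase, Psf2 rose by 0.25 and Psf3 fell by 0.45 ± 0.05. The other lower gene of the list was E2f2, a repressor of replication genes, at −0.18. The cyclin E gene CycE rose by 0.57 ± 0.13.

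Of 48 mitosis genes 27 rose and 4 fell, with a median of 0.17. The chromosome condensation gene glu, an Smc4 subunit of condensin, rose by 0.51 ± 0.04 (SE) and thr, which encodes a partner of separase, by 0.49 ± 0.04. fzr, which encodes an activator of the anaphase-promoting complex in cells that leave the cycle, fell by 0.30 ± 0.05. In the jumu deficiency the median of the mitosis list was −0.32 against controls, and 36 of the 48 genes were higher in the null than in the jumu deficiency. For replication genes 22 of 37 were higher in the null than in the jumu deficiency. RPA1 differed by 0.09 from the jumu deficiency (limma adjusted p = 0.119), where it was also above controls by 0.66. DNA repair genes moved at about the share over all genes, with 9 of 38 higher and 5 lower.

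**Figure D5:**
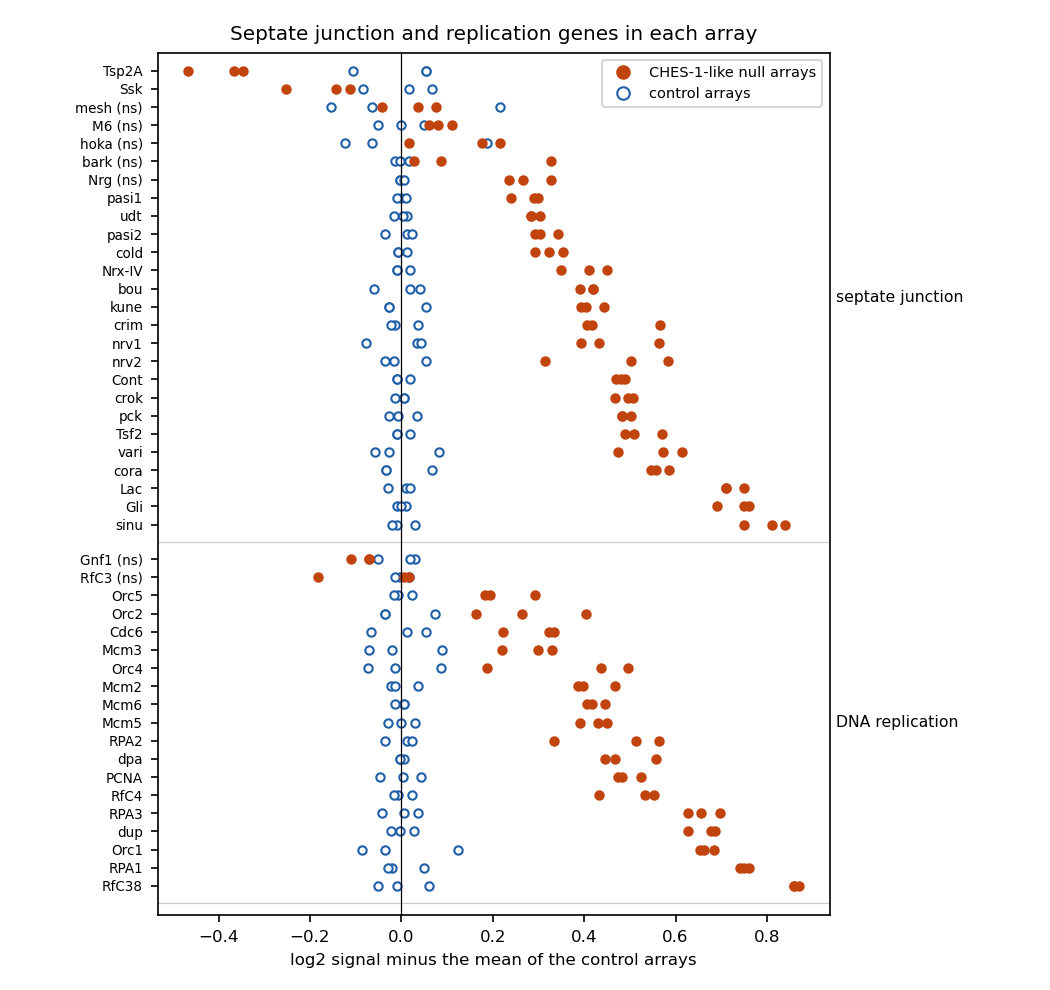
Log2 signal in each array minus the mean of the control arrays for septate junction genes and for replication genes of the Mcm, origin loading and RPA, RfC and PCNA groups, with filled points for CHES-1-like null arrays and open points for control arrays; (ns) marks genes past no threshold. The null arrays lie right of 0 for most genes of both families, with Tsp2A and Ssk on the other side.

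Genes of epithelial junctions and polarity rose. Septate junctions seal the spaces between epithelial cells. Of 26 measured genes 19 were higher and 2 lower, with a median of 0.41, and the list mean lay between 10.10 and 10.11 in the null arrays and between 9.73 and 9.76 in the controls. Lac, an immunoglobulin protein of the junction, read 12.26, 12.26 and 12.30 against 11.52, 11.56 and 11.57. The gliotactin gene Gli, whose product marks tricellular contacts, read 10.34, 10.35 and 10.28 against 9.58, 9.60 and 9.59. The claudin gene sinu rose by 0.79 ± 0.05 (SE), the largest change, and the claudin genes pck and kune by 0.49 and 0.41. The 2 lower genes, Tsp2A at −0.39 ± 0.06 and Ssk at −0.17 ± 0.05, encode parts of the smooth septate junction of the gut. The call of Ssk held in 2 of 6 fits without 1 array (limma adjusted p up to 0.144), and was lost without null replicates 1 and 3 and control replicates 2 and 3. Their partner gene mesh lay within background. Of 17 apical polarity genes 14 rose and 1 fell. crb, which encodes the apical determinant Crumbs, read 10.82, 10.85 and 10.76 against 10.09, 10.07 and 10.10. The adaptor gene cno rose by 0.75 ± 0.04, although its second, dim probe set did not pass, and the kinase gene par-1, which acts at the basolateral side, fell by 0.21 ± 0.05. Against the jumu deficiency 22 of the 26 septate junction genes were higher in the null. Their median change in the jumu deficiency against controls was −0.17.

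Markers of cells outside the mesoderm moved with these families. Of 26 epidermis markers 17 rose and none fell, and the list mean was 8.58 to 8.63 in the null arrays and 8.14 to 8.18 in the controls. In this list 4 genes had both means below the background bound. Of 12 endoderm markers 10 rose (83.3%, against 17.1% over all genes) and none fell. The higher count was 7 to 9 in fits without 1 array. The endoderm list mean was 8.79 to 8.85 in the null arrays and 8.47 to 8.50 in the controls, and no member was below the bound. Trachea and salivary gland markers rose in 13 of 20 cases and neural markers in 19 of 29, with at most 1 lower gene in each. The neural list mean was 9.43 to 9.50 in the null arrays and 9.23 to 9.24 in the controls. Gli, sinu, crb, cora and Nrx-IV stand in both the epidermis and the junction or polarity lists, so these counts are not separate. The part of such cells in the rises of junction, polarity and replication genes was not tested.

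Of 37 glutathione S-transferase genes 17 rose (45.9%) and 2 fell. These enzymes couple glutathione to foreign and reactive compounds. All 4 theta class genes rose, by 0.36 to 1.38, as did 4 of 11 delta and 4 of 13 epsilon genes. Of the delta genes 5 and of the epsilon genes 3 lay within background, against none of the theta genes, and a difference between the classes was not tested. GstD9 read 9.46, 9.36 and 9.37 in the null arrays and 7.88, 7.91 and 7.88 in the controls, a rise of 1.5 ± 0.04 (SE). The microsomal enzyme gene Mgstl rose by 1.59 ± 0.06 at its bright probe set, and its other probe set, which lies below the background bound, read −0.02. GstT1 read 8.47, 8.21 and 8.20 against 6.91, 7.07 and 6.77. GstD9 lay 1.91 and GstD1 0.75 below the jumu deficiency, whereas GstT1 lay 1.78 above it. Of 86 cytochrome P450 genes, 53 of which were within background, 15 rose (17.4%) and 10 fell (11.6%). Over all genes 17.1% were higher and 18.6% lower. Cyp6d5 rose by 1.38 ± 0.06. In the UDP-glycosyltransferase family 6 of 35 genes rose (17.1%) and 5 fell (14.3%), with 24 within background and Ugt302C1 at −1.79 ± 0.06. The count of higher genes dropped to 3 without null replicate 1 or without control replicate 1 or 2.

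Germ line and maternal genes held some of the larger rises. Of 21 germ line genes 10 rose and 2 fell, and 5 lay within background. The higher count was 11 without null replicate 3 and 8 without any other array. The lower count was 2 without null replicate 2 and 1 without any other array. nanos, which encodes the translational repressor of the germ plasm, read 6.89, 6.71 and 6.40 in the null arrays and 4.92, 4.85 and 4.84 in the controls, which lie below the background bound. The Argonaute gene AGO3 of the piRNA amplification loop read 8.70, 8.69 and 8.73 against 7.15, 7.14 and 7.09. rhi, which encodes the Rhino protein of piRNA clusters, rose by 1.36 ± 0.04 (SE), and the Tudor domain gene tej by 1.40 ± 0.13. krimp, another Tudor domain gene of this pathway, fell by 0.71 ± 0.10. The germ cell defining genes vas and osk were at background, at 4.68 ± 0.10 (SD, n = 3) and 4.92 ± 0.08 in the null and 4.61 ± 0.04 and 4.86 ± 0.13 in controls. AGO3 was 3.18, tej 2.59 and krimp 2.08 higher in the null than in the jumu deficiency. In the jumu deficiency these 3 genes changed by −1.60, −1.19 and −2.79 against controls, and the list median was −0.26. Of the 21 genes 13 were higher and 1 lower in the null than in the jumu deficiency. In the early patterning list 22 of 41 rose and 2 fell, with the Torso receptor gene tor at 1.21 ± 0.12 (SE) and the Hedgehog ligand gene hh at 0.77 ± 0.05. The embryonic linker histone gene BigH1 rose by 0.85 ± 0.07.

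Transcription factor genes rose more often than they fell in most classes. Of 45 BTB and zinc finger regulators 25 rose and 6 fell, with a median of 0.24. sens, the proneural factor of sense organs, read 8.66, 8.68 and 8.53 against 7.40, 7.23 and 7.20, a rise of 1.34 ± 0.07 (SE). sob, a leg patterning factor, and ovo, whose somatic form directs epidermal hairs, rose by 0.98 ± 0.07 and 0.89 ± 0.07. Of 65 homeobox genes outside the Hox complexes 26 rose and 8 fell. The LIM homeobox gene Awh rose by 0.99 ± 0.06 at its bright probe set, though a dim second one did not pass. The POU gene acj6 fell from 6.70 ± 0.05 (SD, n = 3) to 5.28 ± 0.10, at the background bound, and the homeobox gene so, of the eye network, fell by 0.94 ± 0.07 (SE). Nuclear receptor genes leaned lower, with 8 of 20 lower and 5 higher, the latter 3 without null replicate 1 or 2 or control replicate 2 or 3. ftz-f1 rose by 1.11 ± 0.06, with a second probe set that did not pass, and Hr51 fell by 0.99 ± 0.07. Among bHLH genes 14 of 45 rose and 7 fell, with net at −1.35 ± 0.10 and tx at −0.87 ± 0.05, and the higher count was 9 without control replicate 2. Of 15 Forkhead genes 5 rose and 3 fell, CHES-1-like included. fkh, the founding member that patterns gut and salivary gland, rose by 0.62 ± 0.09, and fd96Cb by 0.50 ± 0.06.

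In the JNK and TNF list 7 of 15 genes rose and 1 fell, the latter in 2 of the fits without 1 array, with cbt at 0.86 ± 0.04 (SE) and kay, which encodes the fly Fos protein, at 0.83 ± 0.06. In the Toll and Imd list 14 of 28 rose and 3 fell, and the higher count was 9 without control replicate 1. wbl, which acts in the ovary upstream of Toll, rose by 0.78 ± 0.04, and the caspase gene Dredd by 0.44 ± 0.04. dl, which encodes the NF-kappaB factor Dorsal, fell by 0.77 ± 0.06, to a null mean of 4.74 below the background bound. In the Hippo list 6 of 16 rose and 3 fell, the latter 1 without control replicate 2, with the cadherin kinase gene fj at 0.75 ± 0.05 and the cadherin gene ds at 0.55 ± 0.07. For the Dpp and Activin list, with 3 of 22 higher, autophagy, with 8 of 22 higher and 4 lower, and axon guidance, with 5 of 23 and 4, the medians lay between 0.00 and 0.04. Of 10 JAK/STAT genes 5 rose, and 3 without control replicate 2, and 1 fell, with the ligand gene upd1 at 0.69 ± 0.07.

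Families used in other tissues or later stages had few calls. Male accessory gland and testis protein genes numbered 43, of which 39 were within background, and none passed the threshold in either direction with limma. At an unadjusted p under 0.05, 5 of these were higher and 1 lower, and 2 were called higher without null replicate 2 and 1 without control replicate 3, and 1 was called lower without null replicate 1. Of 109 cuticle protein genes, with 68 within background, 5 were higher (4.59%) and 2 lower (1.83%). The higher count was 10 without null replicate 2 and 1 without control replicate 1. Of 67 ionotropic and glutamate receptor genes, with 55 within background, 1 was higher (1.49%) and 4 lower (5.97%), the latter 2 without control replicate 2 or 3. GluRIID, a glutamate receptor subunit of the nerve and muscle junction, fell by 0.92 ± 0.07 (SE).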

How the data were processed

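Total RNA of sorted cells was hybridised to Affymetrix Drosophila arrays, 1 sample per array. The authors deposited log2 signals, 1 value per probe set and array, made with affy per the submitters' processing notes; for its version, background correction and summary method, no source used here gives a statement. Depth does not apply, and the number of arrays limits precision. From these values limma 3.58.1 in R 4.3.3 fitted the 3 groups over all 9 arrays, with 6 residual degrees of freedom and Benjamini-Hochberg adjustment over 18769 probe sets, after 183 control probe sets were left out. Of these, 13647 name 1 gene, 402 name several, and 4720 are not named in the platform table; symbols were updated through RefSeq. The probe set with the highest mean signal stands for a gene. The fit was checked on simulated data.

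Named by rule were CHES-1-like, the 15 largest increases and decreases, the 10 largest among the brightest 20% of genes, and up to 4 members of smallest p in each list; other members and all subgroups were named after their values were seen. Members and lists were chosen with earlier results of these data known, and several list patterns and synonyms were corrected after values were first seen. Alternatives covered scaling, filtering, weights, the replicate block and leaving out each array.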

Additional observations from a re-analysis of the deposited data

How the results depend on the processing

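The genome-wide counts kept their order of magnitude under every alternative except a demand for 1.5-fold change, which left 168 probe sets higher and 186 lower of 2637 and 2805, and 131 genes higher and 136 lower. A threshold of 0.01 left 1714 higher and 2071 lower. Leaving out 1 array gave 2096 to 2457 higher and 2328 to 2607 lower probe sets. Centring each array on its median moved the share of higher among called genes from 47.8% to 39.2% (1543 higher, 2390 lower), and the median over all genes from 0.025 to −0.009. Deviations from the group means of same-numbered null and control arrays correlated at 0.11, −0.136 and 0.15. With 3 arrays per group these values cannot decide whether the numbers pair the arrays, and the main fit did not pair them. The fit with a replicate block gave 2393 higher and 2612 lower probe sets. No named gene changed direction with a call. The medians of the glycolysis, mitochondrial, nucleolar, replication, junction and germ line lists kept their sign under all alternatives, while those of lists close to 0, such as cytochrome P450, DNA repair and channel genes, did not all do so. Calls of sna, Sxl, l(1)G0320 and RpL34a were lost under several alternatives. The probe sets of Sxl conflict: it changed by 0.41 at its brightest, and by 0.29 ± 0.06 and −0.82 ± 0.11 (SE) at further ones. Within the background bound in both groups lay 4249 genes, of which 334 were called, and for these the signal limits what can be seen.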

Other observations

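Among genes for channels, hormone receptors and cyclic nucleotide enzymes a few changed by a large amount. The cation channel gene Trpgamma rose by 1.61 ± 0.06 (SE), with null arrays at 6.49, 6.52 and 6.52 and control arrays at 4.94, 4.86 and 4.91. The potassium channel gene sand, known for its part in sleep, fell by 0.91 ± 0.07. Of 39 potassium, sodium and calcium channel genes 2 rose (5.13%), or 1 without control replicate 3, and 8 fell (20.5%), with 19 within background. Over all genes 17.1% were higher and 18.6% lower. The hormone receptor gene rk, which encodes the bursicon receptor, read 4.32, 4.08 and 3.97 in the null arrays, all below the background bound, and 6.22, 5.96 and 6.002 in the controls. The receptor gene Pdfr, for the circadian peptide PDF, rose by 0.60 ± 0.05. Of 42 such receptor genes 5 rose and 5 fell (11.9% each), and 30 lay within background. Without null replicate 3 the counts were 2 and 3. Of 25 cyclic nucleotide enzyme genes 4 rose, or 2 without control replicate 3, and 8 fell, with the adenylyl cyclase gene rut at −0.54 ± 0.05.

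Among 51 genes of the Beat, Side, Dpr and DIP immunoglobulin families 3 rose, or none without null replicate 2 or control replicate 2. In these families 8 fell (15.7%), a share below that over all genes, and 28 lay within background. beat-IIb read 7.05, 7.20 and 7.05 in the null arrays and 8.13, 8.17 and 8.06 in the controls, and dpr19 fell by 0.99 ± 0.06 (SE). Of 34 tetraspanin genes, with 17 within background, 5 rose (14.7%) and 4 fell (11.8%), shares below those over all genes. Without control replicate 3 the higher count was 3. The part of low signal in the shares of these families was not tested. Tsp3A fell by 1.14 ± 0.09 and Tsp86D by 0.60 ± 0.04. Of 35 integrin and basement membrane genes 6 rose (17.1%) and 8 fell (22.9%), shares near those over all genes. Ndg, which encodes nidogen, fell by 0.61 ± 0.04, while the collagen IV genes Col4a1 and vkg rose by 0.29 ± 0.04 and 0.35 ± 0.05. The serpin gene Spn43Aa read 10.14, 10.12 and 10.07 against 8.81, 8.82 and 8.79, and the growth factor gene Idgf2 rose by 1.02 ± 0.04. The insulin-like peptide gene Ilp7 rose by 1.24 ± 0.10 from control arrays within background. All limma calls here used the same threshold as above.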
